A study of Mus musculus with 4 samples.

Results

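Endothelial overexpression of angiopoietin-2 (Ang2) was compared with its control in single cells of the spinal cord (SC) in experimental autoimmune encephalomyelitis (EAE), at 12 days after immunization (dpi). The comparison was between 1 library of *EC-Ang2* mice and 1 library of control (Ctrl) mice. Cells were taken by their transcripts from barcodes with at least 2000 unique molecular identifiers (UMIs) and under 10% mitochondrial UMIs. Endothelial cells (ECs) had a sum of at least 5 UMIs of *Cldn5*, *Cdh5*, *Egfl7*, and *Esam* with at most 2 of *Ptprc*, *Laptm5*, and *Coro1a*. Myeloid cells had at least 10 UMIs of *Tyrobp*, *Fcer1g*, and *Ctss* with at most 2 of the endothelial sum, and T cells had at least 3 UMIs of *Cd3e*, *Cd3g*, and *Lat* with at most 2 of *Tyrobp*. These rules gave 3639 ECs, 2281 myeloid cells, and 191 T cells in Ctrl and 2465, 2169, and 396 in *EC-Ang2*, together 11132 cells (6 in Ctrl and 3 in *EC-Ang2* met 2 of the rules) among the 26525 cells kept in the 4 libraries of the study.

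*EC-Ang2* mice carried *VE-cadherin-tTA*, in which an EC promoter drives the tetracycline-controlled transactivator, together with the *Tet-OS-Ang2* transgene that it switches on. Ctrl mice were littermates with a single transgene, and doxycycline in the food of pregnant females kept the transgene off until birth. Both were of the C57Bl/6JCrl strain, 12 to 14 weeks old, and immunized with the MOG35-55 peptide in complete Freund's adjuvant, with pertussis toxin at a lower dose than the other libraries. The 2 other libraries, shown beside these only where they help to read a value, came from C57Bl/6JOlaHsd mice of 15 weeks given mouse IgG1 (mIgG1) or an Ang2-blocking antibody (Ang2 Ab) and taken at 14 dpi. In each library, CD45+ immune cells and CD31+ ECs had been sorted in equal numbers and captured with the 10x Genomics 3′ v2 chemistry. The sort thus shaped the balance of ECs and immune cells. Its part in the balance of myeloid and T cells was not tested. How many mice made up a library is not given in the sources used here. With 1 library per group, no difference could be tested, and the 95% intervals below cover counting error alone and say nothing of how mice or libraries vary.

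Ang2 is secreted by ECs and stored in their Weibel-Palade bodies. It binds the receptor tyrosine kinase Tie2, encoded by *Tek*, which angiopoietin-1 from mural cells keeps active in resting vessels, and in inflamed vessels Ang2 acts as a weak or opposing ligand that lowers Tie2 signaling. Vessels of the brain and SC form the blood-brain barrier, with tight junctions, many nutrient transporters, and little leukocyte adhesion at rest.

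The deposited counts held 52084739 UMIs in Ctrl and 52796061 in *EC-Ang2*, from which 6627 and 5415 barcodes passed the UMI and mitochondrial limits. The median UMIs per cell were 4320 and 6170 in ECs, 6674 and 7504 in myeloid cells, and 4562 and 4402.5 in T cells. Markers that the rules had not used were common in ECs and T cells: *Pecam1* was found in 90.2% and 94.6% of ECs, *Flt1* in 99.1% and 97.9%, and *Cd3d* in 96.3% and 95.7% of T cells. Ambient transcripts shared by all droplets (free RNA) were estimated at 3.24% to 4.42% of the UMIs of the 6 groups of cells. Lists of transcripts of other cells had lower sums in ECs of *EC-Ang2*. Sums are given for Ctrl and *EC-Ang2* as counts per 1000000 UMIs of the class (CPM). They were 562 and 288 CPM for 9 immune transcripts and 879 and 438 CPM for mural cells. For glia and neurons they were 105 and 52.0 CPM, and for red cells 8161 and 1765 CPM. Single myeloid transcripts went both ways in ECs. *Lyz2* (74.98 and 181.6 CPM, in 28.3% and 65.2% of ECs) and *Chil3* (6.98 and 80.5 CPM) were higher in *EC-Ang2*. *Csf1r* (19.5 and 6.87 CPM) and *C1qc* (69.9 and 13.7 CPM) were lower. The lower immune sum thus does not hold for each immune transcript. In the 2 libraries, 51 kept barcodes were shared, and 14 Ctrl and 18 *EC-Ang2* ECs had an endothelial sum of only 5 to 7. The part of other cells' transcripts in the results below was not tested, except where a value without them is given. Cells with UMIs of at least 3 of 11 cycling genes made up 0.550% and 2.47% of ECs and 14.5% and 3.14% of myeloid cells.

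*Angpt2*, the gene of Ang2 (chr8:18690263-18741562, minus strand, GRCm38 with GENCODE M21 annotation), was examined first because it checks the labels. In ECs it was counted at 66.0 CPM in Ctrl (1285 UMIs, exact Poisson interval 62.4 to 69.7) and 1090.4 CPM in *EC-Ang2* (22691 UMIs, 1076 to 1105). The log2 ratio was 4.05 (exact conditional binomial interval 3.97 to 4.13), whereas ECs of mIgG1 were at 49.1 CPM and those of Ang2 Ab at 306 CPM. The library labelled *EC-Ang2* was thus the highest of the 4. Counts at the 3′ end cannot separate transcripts of the transgene from those of the endogenous gene. With each cell thinned to 2000 UMIs, an *Angpt2* UMI was found in 7.61% of Ctrl ECs (exact binomial interval 6.77% to 8.52%) and 27.4% of *EC-Ang2* ECs (25.6% to 29.2%), against 12.0% and 42.3% without thinning. At 2000 UMIs the share was 6.10% in mIgG1 and 22.2% in Ang2 Ab (20.9% to 23.6%). The share of ECs with a UMI thus set *EC-Ang2* less apart from Ang2 Ab than the CPM did.

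Myeloid and T cells were taken as the background for this gene. Myeloid cells had an *Angpt2* UMI in 0.263% (Ctrl) and 2.95% (*EC-Ang2*) of cells at the same 2000 UMIs, and T cells in 0.524% and 2.53%. Their levels were 0.816 and 15.0 CPM in myeloid cells and 8.0 and 14.0 CPM in T cells. In *EC-Ang2* the free RNA estimate came to 118% of the myeloid level but to 1.33% of the EC level. For T cells the estimate was made only on those with an endothelial sum of at most 2. It came to 144% of the level in those T cells, not of the 14.0 CPM over all T cells. *Angpt2* transcripts were spread unevenly over the *EC-Ang2* ECs. At 2000 UMIs per cell, 72.6% of them had no *Angpt2* UMI, 9.53% had 1, 13.1% had 2 to 9, and 4.79% had 10 or more, against 0.0550% of Ctrl ECs for the last. In Ang2 Ab, 10.9% of ECs had 2 to 9 and 0.306% had 10 or more. The 246 ECs with most *Angpt2*, 10% of the class, held 85.2% of its UMIs. The spread was uneven in Ctrl too, where the top 10%, 363 ECs, held 94.2% of far fewer UMIs. The highest EC had 659 UMIs against 61 in Ctrl.

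**Figure D1:**
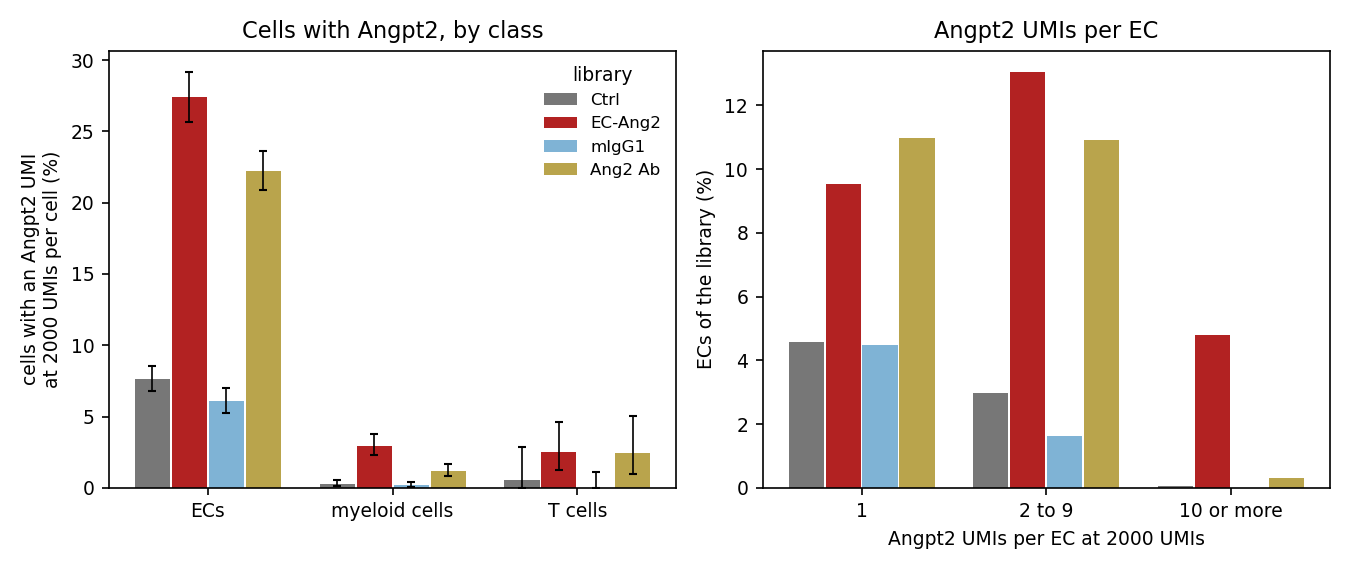
*Angpt2* in the 4 libraries. Left, percentage of cells with an *Angpt2* UMI after thinning to 2000 UMIs, for ECs, myeloid cells, and T cells, with exact binomial 95% intervals. *EC-Ang2* ECs reach 27.4%, Ang2 Ab ECs 22.2%, and Ctrl ECs 7.61%, and myeloid and T cells stay under 3%. Right, percentage of ECs with 1, 2 to 9, or 10 or more *Angpt2* UMIs, where the last bin holds 4.79% of *EC-Ang2* and 0.306% of Ang2 Ab ECs.

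Of 12 genes of the angiopoietin and Tie pathway, 6 passed the filter on low counts. *Tek* (chr4:94739289-94874976, plus strand) was counted at 164 CPM in Ctrl, 112 in *EC-Ang2*, 186 in mIgG1, and 177 in Ang2 Ab, a log2 ratio of -0.56 (-0.63 to -0.48) that did not reach 1.5-fold. *Tie1*, the receptor that pairs with Tie2, was at 168 and 143 CPM in Ctrl and *EC-Ang2*, and *Ptprb*, the phosphatase that acts on Tie2, at 332 and 372 CPM. *Itga5*, an integrin subunit for fibronectin that Ang2 can also bind (chr15:103344286-103366763, minus strand), rose from 20.5 to 51.1 CPM, a log2 ratio of 1.32 (1.15 to 1.49), with 39.0 CPM in mIgG1. Its partner *Itgb1* was at 312 and 377 CPM. *Angpt1* itself was nearly absent from ECs, with 15 UMIs in Ctrl and 13 in *EC-Ang2*. Among the 6, the overexpressed ligand differed most, and *Tek* and *Tie1* were at somewhat lower levels.

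Across all genes, ECs of *EC-Ang2* and Ctrl differed in both directions. A gene was counted as higher or lower when its CPM differed at least 1.5-fold, a UMI was found in at least 10% of the cells of 1 library, and both libraries together held at least 50 UMIs. Of 6745 genes that passed the filter, 374 were higher (5.54%) and 386 lower (5.72%) in *EC-Ang2*, and the median log2 ratio of all genes was -0.05. Set against mIgG1, a control at a later day, *EC-Ang2* ECs had 186 of 6759 genes higher (2.75%) and 204 lower (3.02%). mIgG1 ECs set against Ctrl ECs had 243 of 6095 higher (3.99%) and 178 lower (2.92%), a comparison that uses the same Ctrl library.

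Most venous genes, among them 5 that are also on the leukocyte adhesion list, were higher in *EC-Ang2* ECs. In the venous list, 8 of 12 tested genes were higher and 1 lower, with a median log2 ratio of 0.86, and 5 of 14 genes of the leukocyte adhesion list were higher and 0 lower, with a median of 0.09 and 5 members below 0. The 5 that rose were *Selp*, *Ackr1*, *Vcam1*, *Icam1*, and *Sele*, all of which the venous list also holds. *Selp*, the P-selectin on which leukocytes roll (chr1:164115264-164150026, plus strand), was at 57.7 CPM in Ctrl, 263 in *EC-Ang2*, 106 in mIgG1, and 59.3 in Ang2 Ab, a log2 ratio of 2.19 (2.10 to 2.28) for *EC-Ang2* over Ctrl. *Vcam1*, the ligand of the integrin α4β1 (chr3:116109949-116129688, minus strand), was at 386 CPM in Ctrl, 852 in *EC-Ang2*, 623 in mIgG1, and 468 in Ang2 Ab, and its log2 ratio was 1.14 (1.10 to 1.18). *Icam1*, the ligand of the integrin LFA-1 (chr9:21015985-21028817, plus strand), was at 258 CPM in Ctrl, 422 in *EC-Ang2*, 321 in mIgG1, and 326 in Ang2 Ab, with a log2 ratio of 0.71 (0.66 to 0.76). In all 3, *EC-Ang2* was the highest of the 4 libraries and Ctrl the lowest.

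*Sele*, or E-selectin (chr1:164048234-164057677, plus strand), rose from 33.4 to 85.7 CPM (log2 ratio 1.36, 1.23 to 1.49), and *Ackr1*, a chemokine-binding receptor of venules (chr1:173331886-173333750, minus strand), from 1311 to 3078 CPM (log2 ratio 1.23, 1.21 to 1.25). *Vwf*, the clotting protein stored with P-selectin, rose from 237 to 715 CPM with 542 CPM in mIgG1, and *Nr2f2*, a transcription factor of venous identity, rose from 47.2 to 80.6 CPM with 56.5. *Lrg1*, a secreted glycoprotein of inflamed vessels, went from 1369 to 2655 CPM, and mIgG1 was at 1382. The 1 venous gene that fell was the amino acid transporter *Slc38a5*, at 595 and 316 CPM. Adhesion molecules of resting ECs moved less: *Pecam1* was at 596 and 622 CPM, *Icam2* at 393 and 371 CPM, *F11r* at 252 and 292 CPM, and *Cd34* at 809.6 and 566 CPM.

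**Figure D2:**
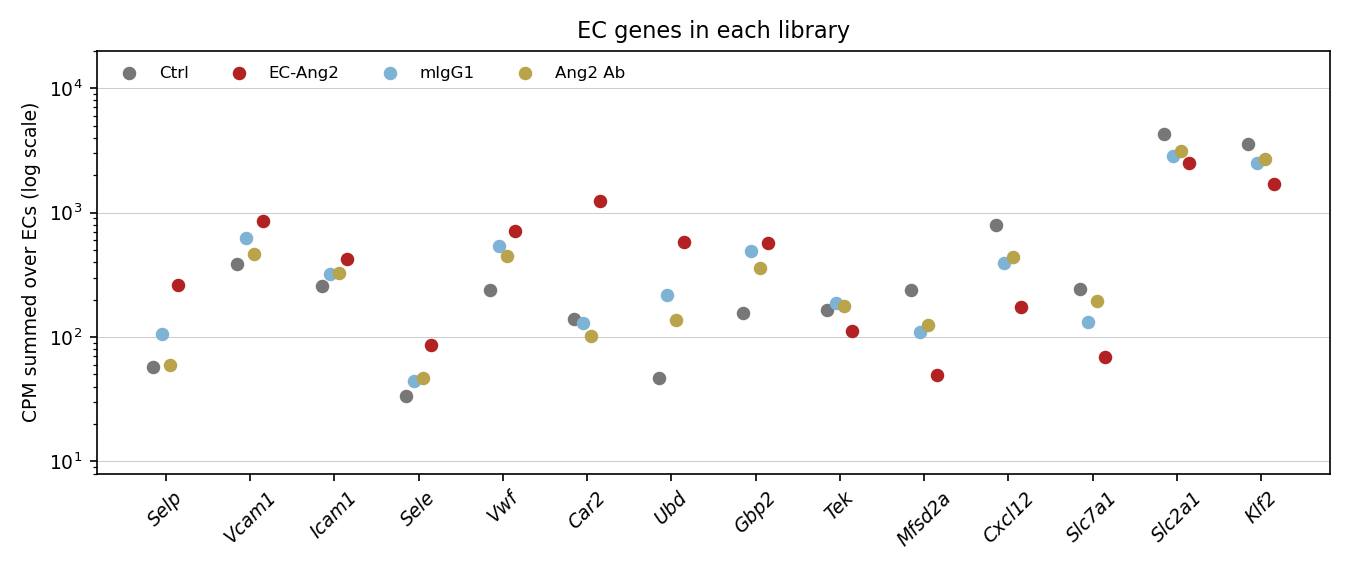
Level of 14 genes in ECs of Ctrl, *EC-Ang2*, mIgG1, and Ang2 Ab, in CPM on a log scale, 1 point per library. *Car2* stands apart in *EC-Ang2* alone, *Selp* is at 263 CPM there against 57.7 to 106 CPM in the others, and *Mfsd2a* and *Cxcl12* are lowest in *EC-Ang2*.

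Nutrient transporters of the blood-brain barrier and capillary markers were lower in *EC-Ang2*. Of 16 barrier transporters, 13 were lower and 0 higher, with a median log2 ratio of -0.99, and of 10 capillary genes 9 were lower and 0 higher, with a median of -1.47. *Mfsd2a*, the lipid transporter that restrains transcytosis and is on both lists (chr4:122946850-122961188, minus strand), was at 239.9 CPM in Ctrl, 49.4 in *EC-Ang2*, 109.7 in mIgG1, and 125 in Ang2 Ab, a log2 ratio of -2.28 (-2.38 to -2.18). *Slc2a1*, the glucose transporter GLUT1 (chr4:119108711-119137983, plus strand), was at 4288 CPM in Ctrl, 2484 in *EC-Ang2*, 2877 in mIgG1, and 3151 in Ang2 Ab, with a log2 ratio of -0.79 (-0.80 to -0.77). *Cxcl12*, a chemokine of capillary ECs (chr6:117168535-117181367, plus strand), was at 798 CPM in Ctrl, 173 in *EC-Ang2*, 392 in mIgG1, and 443 in Ang2 Ab, with a log2 ratio of -2.21 (-2.26 to -2.15). For these 3 genes *EC-Ang2* was the lowest of the 4 libraries and Ctrl the highest.

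Amino acid transporters that fell were *Slc7a1*, for cationic amino acids (245 and 69.3 CPM, -1.82, in Ctrl and *EC-Ang2* with the log2 ratio), and both chains of the transporter of large neutral amino acids, *Slc7a5* (469 and 199 CPM, -1.24) and *Slc3a2* (1071 and 566 CPM, -0.92). The taurine transporter *Slc6a6* (604 and 239 CPM, -1.34), the thyroid hormone transporter *Slco1c1* (809 and 320.3 CPM, -1.34), the organic anion transporter *Slco1a4* (1570.4 and 750.4 CPM, -1.07), and the transferrin receptor *Tfrc* (63.2 and 31.0 CPM, -1.03) fell too. The efflux pump *Abcg2* fell from 913 to 541 CPM, while *Abcb1a*, which encodes P-glycoprotein, was at 569 and 384 CPM and just missed 1.5-fold. *Slc6a6*, *Slc7a5*, and *Tfrc* stood at 590.3, 494, and 67.1 CPM in mIgG1, close to Ctrl. The transporter list as a whole had a median log2 ratio of -0.31 for mIgG1 over Ctrl. Among capillary genes, *Rgcc*, a cell cycle regulator, fell from 397 to 110.1 CPM, the proteoglycan *Spock2* from 743 to 252 CPM, and the carbonic anhydrase *Car4* from 583 to 209 CPM.

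Loss of capillary transcripts and gain of venous ones can come from altered genes within a cell or from another mix of vessel segments, and these cannot be told apart from summed counts alone. In ECs with no UMI of 8 venous and arterial genes (*Vwf*, *Selp*, *Slc38a5*, *Ackr1*, *Bmx*, *Sema3g*, *Stmn2*, and *Gkn3*), 140 cells in *EC-Ang2* and 455 in Ctrl, the median log2 ratio was -0.27 for the transporters and -0.43 for the capillary genes. In the same cells the median was 0.40 for MHC class I, 1.11 for the interferon-γ list, 0.81 for the type I interferon list, and -0.06 for the adhesion list. For MHC class II it was 2.45, but this value is limited by free RNA, whose estimate for *Cd74* in all ECs is given below. It was thus not read as a level of the ECs' own. Several of the 8 genes themselves differed between the libraries, so that leaving out cells that contain them does not hold the vessel segment constant. Against mIgG1, the medians in *EC-Ang2* were -0.77 for transporters, -1.08 for capillary genes, and 0.48 for venous genes. The medians for mIgG1 over Ctrl went the same way, at -0.31, -0.77, and 0.29.

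Genes that shape the barrier in other ways gave smaller counts. Of 16 tested genes of Wnt and Notch signaling, which maintain barrier ECs, 3 were lower and 0 higher: the Wnt transcription factors *Tcf7* (30 and 14.3 CPM) and *Lef1* (220.1 and 145 CPM), and *Sox17* (356 and 196 CPM). *Jup* and *Ocln* were the 2 of 9 junction genes that fell, with *Ocln*, or occludin, from 278 to 172 CPM. *Tjp1*, which encodes the scaffold ZO-1, was at 151 and 164 CPM. In the list for caveolae, *Cav1* (280.2 and 173 CPM), *Cav2* (331 and 166 CPM), and the coat protein gene *Sdpr* (409 and 189 CPM) were lower, 3 of 6 tested. Arterial genes were lower in 3 of 7, led by *Alpl*, an alkaline phosphatase (50 and 10.3 CPM).

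Among 10 genes tied to Tie2, Foxo1, and flow, 3 were lower and 1 was higher. *Klf2*, a transcription factor that laminar flow induces, was at 3549 CPM in Ctrl, 1706 in *EC-Ang2*, 2514 in mIgG1, and 2676 in Ang2 Ab, a log2 ratio of -1.06 (-1.07 to -1.04). *Klf4*, its close relative, fell from 695 to 413 CPM, and *Thbd*, the anticoagulant receptor thrombomodulin, fell from 253 to 105 CPM. *Ctgf*, a matrix-associated growth factor gene, rose from 10.2 to 30.9 CPM, and *Foxo1* was at 69.8 and 88.4 CPM. Immediate early genes, which cell isolation induces, had 0 of 16 higher and 2 lower, with a median of -0.27.

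Genes of sprouting ECs were mixed, with 5 of 13 higher and 2 lower. *Trp53i11* rose from 14.4 to 78.4 CPM (log2 ratio 2.44, 2.26 to 2.63), the tubulin *Tubb6* from 88.6 to 216 CPM, the peptide hormone *Adm* from 105 to 216 CPM, and the basement membrane gene *Nid1* from 30.9 to 63.7 CPM. Receptors for vascular endothelial growth factor went both ways, with *Nrp2* at 32.4 and 56.0 CPM, *Nrp1* at 225 and 129.7 CPM, and *Flt1* at 1719 and 1100.0 CPM. The collagen IV chains *Col4a1* (241 and 415 CPM) and *Col4a2* (175 and 289 CPM) were among 4 of 12 basement membrane genes that rose. In the list for transforming growth factor-β, 2 of 14 were higher and 2 lower. *Tgfb2*, a ligand of that family, fell from 71.7 to 25.8 CPM and *Id1* from 928 to 542 CPM.

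Inflammatory genes rose in several groups. In the NF-κB and acute phase list, 7 of 14 genes were higher and 0 lower, with a median log2 ratio of 0.64. The neutrophil chemokines *Cxcl1* (440.0 CPM in Ctrl, 917 in *EC-Ang2*, and 386 in mIgG1) and *Cxcl2* (131 CPM in Ctrl, 247 in *EC-Ang2*, and 117 in mIgG1) rose, as did *Csf3*, the granulocyte growth factor (75.9 CPM in Ctrl, 150.3 in *EC-Ang2*, and 39.5 in mIgG1). *Tnfaip3*, a feedback inhibitor of NF-κB, was at 51.7 and 109 CPM, and the acute phase gene *Saa3* at 9.55 and 64.6 CPM with 59.9 in mIgG1. *Cxcl1*, *Cxcl2*, and *Csf3* were no higher in mIgG1 than in Ctrl, and the median of the list was 0.47 for *EC-Ang2* over mIgG1.

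The interferon-γ list, of GTPases and other targets of that cytokine, had 14 of 17 genes higher and 0 lower, with a median log2 ratio of 0.74. *Gbp2*, a GTPase against intracellular microbes (chr3:142620602-142638008, plus strand), was at 156 CPM in Ctrl, 570.1 in *EC-Ang2*, 487 in mIgG1, and 356 in Ang2 Ab, with a log2 ratio of 1.87 (1.82 to 1.93). *Cxcl10*, a chemokine for activated T cells (chr5:92346638-92348889, minus strand), was at 65.0 CPM in Ctrl, 315 in *EC-Ang2*, 146 in mIgG1, and 122 in Ang2 Ab, with a ratio of 2.28 (2.19 to 2.37). *Irf1*, a transcription factor of the response (chr11:53770014-53778374, plus strand), was at 104 CPM in Ctrl, 174 in *EC-Ang2*, 121 in mIgG1, and 113 in Ang2 Ab, with a ratio of 0.74 (0.66 to 0.82). *Iigp1* rose from 134 to 494 CPM, *Gbp4* from 66.3 to 225 CPM, and *Cd274*, the checkpoint ligand PD-L1, from 17.8 to 35.6 CPM.

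Of 16 genes of major histocompatibility complex (MHC) class I presentation, 8 were higher and 0 lower, with a median of 0.60. These included the peptide transporter *Tap1* (65.3 and 158 CPM), the immunoproteasome subunit *Psmb9* (103 and 186 CPM), and *H2-Q7* (98.3 and 289 CPM), whose near-identical copy *H2-Q6* may share its reads. *H2-K1*, which may share reads with *H2-D1*, was at 969.5 and 1498 CPM, and the light chain *B2m* at 4079.6 and 4959 CPM. The type I interferon list had 0 of 15 genes higher or lower and a median of 0.02 (0.81 in the 140 and 455 ECs without venous or arterial transcripts), with *Ifit1* at 151 and 122 CPM, *Isg15* at 339 and 431 CPM, and *Rsad2* at 81.9 and 82.8 CPM. For MHC class II, 1 of 4 tested genes was higher, but as a share of the EC level of *Cd74* the free RNA estimate was 182% in Ctrl and 81.9% in *EC-Ang2*, and no level of the ECs' own could be read.

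Set over the same Ctrl library, mIgG1 gave medians of 0.91 for the interferon-γ list and 0.73 for MHC class I, and the medians for *EC-Ang2* over mIgG1 were -0.05 and -0.13. The 2 lists were thus at like levels in *EC-Ang2* and in a control of another day, strain, age, and pertussis toxin dose. The log2 ratios over mIgG1 of *Angpt2*, *Selp*, *Mfsd2a*, and *Cxcl12* were 4.47, 1.31, -1.15, and -1.18. Of 35 genes that the study had listed for capillary-venous ECs, 32 were higher in *EC-Ang2* than in Ctrl, with a median of 1.06, and the median for mIgG1 over Ctrl was 1.03. That list had been chosen on these libraries and is no independent evidence of its direction.

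**Figure D3:**
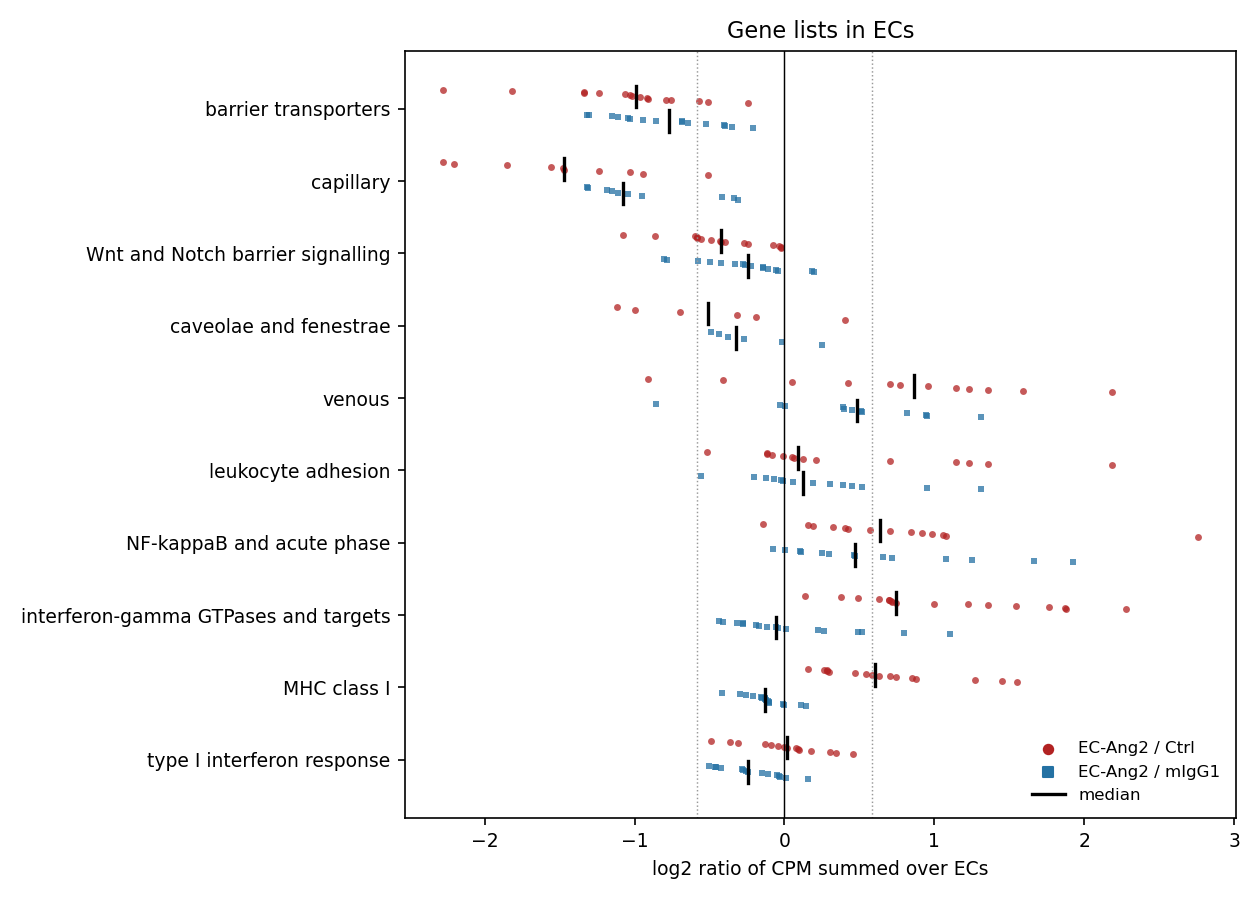
Log2 ratios in ECs for the tested members of 10 gene lists, as *EC-Ang2* over Ctrl (red circles) and *EC-Ang2* over mIgG1 (blue squares), with the median of each list as a black bar and 1.5-fold as dotted lines. Transporter and capillary genes lie below 0 in both, with medians of -0.99 and -1.47 over Ctrl, whereas interferon-γ and MHC class I genes lie above 0 over Ctrl and around 0 over mIgG1.

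Promoters of the interferon-γ list were searched for the motifs of the response. The letters searched on both strands of the 250 bases before each gene start were GAAANNGAAA, for the interferon-stimulated response element (ISRE), and TTCNNNGAA, for the γ-activated site (GAS). Of 15 list genes with a RefSeq promoter of GRCm38.p6, 11 held the ISRE (73.3%) and 7 the GAS (46.7%), and 12 held either (80%), against 3.04%, 7.18%, and 9.83% of 27025 genes. The 13 barrier transporters and 9 capillary genes with a promoter held 0 ISREs, and 3 of 15 MHC class I genes held 1 (20%). Motifs were common also in the type I interferon list, which had 0 genes past 1.5-fold in ECs: of 14 promoters, 6 held the ISRE (42.9%), 3 the GAS (21.4%), and 8 either (57.1%). A match describes these letters only, not a bound factor. A stretch of 3 of the promoters is shown, with the motif in capitals, for *Gbp2* (ISRE, chr3:142620559-142620658, plus strand, starting at -59), *Cxcl10* (ISRE, chr5:92349048-92349139, minus strand, -213), and *Irf1* (GAS, chr11:53769879-53769977, plus strand, -90), with positions counted from the RefSeq gene start. For *Gbp2* the GENCODE gene starts further upstream than the RefSeq gene, so that the motif lies just inside it.
Gbp2: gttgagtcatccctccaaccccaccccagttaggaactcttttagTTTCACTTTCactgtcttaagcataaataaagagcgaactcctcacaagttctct
Cxcl10: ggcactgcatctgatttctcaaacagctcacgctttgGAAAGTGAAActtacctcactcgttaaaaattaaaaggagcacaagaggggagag
Irf1: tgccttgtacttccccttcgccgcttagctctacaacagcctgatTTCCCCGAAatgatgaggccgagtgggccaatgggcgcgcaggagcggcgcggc

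The genes with the largest differences in ECs held several outside these lists. *Car2*, a carbonic anhydrase (chr3:14886273-14900770, plus strand), was at 140.0 CPM in Ctrl, 1248 in *EC-Ang2*, 131 in mIgG1, and 102 in Ang2 Ab, and its log2 ratio was 3.16 (3.10 to 3.21). *Ubd*, a ubiquitin-like modifier that cytokines induce (chr17:37193892-37196095, plus strand), was at 47.2 CPM in Ctrl, 583 in *EC-Ang2*, 219.6 in mIgG1, and 138 in Ang2 Ab, with a ratio of 3.63 (3.53 to 3.73). Its UMIs lay in a minority of cells, 0.797% of Ctrl and 13.8% of *EC-Ang2* ECs, so these CPM do not describe most ECs. *Frzb*, a secreted Wnt inhibitor, rose from 1.44 to 22.6 CPM (in 0.632% and 11.7% of ECs). *Fscn1*, an actin-bundling protein, rose from 10 to 59.0 CPM (in 3.68% and 21.3%). *Ubd*, *Frzb*, and *Fscn1* passed the filter only through *EC-Ang2*. *Car2* was high in *EC-Ang2* only, while *Ubd* was also higher in mIgG1 and Ang2 Ab than in Ctrl.

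The largest falls included *Notum*, which inactivates Wnt proteins (36.9 and 7.06 CPM), and *Akr1c14* (29.9 and 5.48 CPM), beside *Mfsd2a*, *Alpl*, and *Cxcl12*. Some of the largest differences were in transcripts known from other cells. *C1qc*, a complement gene of macrophages and microglia, was at 69.9 and 13.7 CPM, and the free RNA estimate was 102% in Ctrl and 188% in *EC-Ang2* of that level. *Chil3*, a chitinase-like gene of macrophages, was at 6.98 and 80.5 CPM with an estimate of 334% in Ctrl and 86.1% in *EC-Ang2*, and the hemoglobin gene *Hbb-bs*, whose near copy *Hbb-bt* may share its reads, at 3840.0 and 844 CPM. In ECs with 0 hemoglobin UMIs, a choice made after the data had been seen, 376 genes were higher and 393 lower.

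Differences from Ctrl were present also in ECs in which no *Angpt2* was counted. In the 1423 *EC-Ang2* and 3201 Ctrl ECs with 0 *Angpt2* UMIs, a comparison added after the data had been seen, 220 of 6098 genes were higher (3.61%) and 245 lower (4.02%). The median log2 ratio was -0.76 for transporters, -1.14 for capillary genes, 0.85 for venous genes, 0.53 for the NF-κB list, and 0.53 for the interferon-γ list. In these cells *Selp* was at 49.4 CPM in Ctrl and 249 in *EC-Ang2*, *Vcam1* at 416 and 860, *Car2* at 141 and 963, *Mfsd2a* at 245 and 71.4, and *Cxcl12* at 818 and 232. A count of 0 at this depth does not show that a cell made no *Angpt2*.

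Within the *EC-Ang2* library, the 1042 ECs with an *Angpt2* UMI were compared with the 1423 without one. Of the 1042, 742 had at least 2 *Angpt2* UMIs. At this full depth, 10.7% of *EC-Ang2* myeloid cells also had an *Angpt2* UMI, and there the free RNA estimate was 118% of the level. How many ECs were positive through free RNA was not tested. Positive cells had more UMIs, with a median of 8480 against 4994, so values after thinning to 2000 UMIs, where 675 cells were positive, are given beside several of them. Of 7390 genes, 114 were higher (1.54%) and 122 lower (1.65%) in positive cells. In the 438 positive and 3201 negative ECs of Ctrl, 80 of 5932 genes were higher (1.35%) and 137 lower (2.31%). A gene can pass the filter through the deeper positive cells alone, and such a gene is more readily counted as higher. The tested members of a list can thus differ between *EC-Ang2* and Ctrl. Cells of 1 library are not replicates, and *Angpt2* itself, which made the split, is no result.

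In the sprouting list, 7 of 16 tested genes were higher in positive cells with a median of 0.48, against 4 of 12 and 0.37 in Ctrl. *Apln*, a peptide of tip cells, was at 12.3 and 54.9 CPM in negative and positive ECs of *EC-Ang2* and at 1.01 and 19.8 CPM in Ctrl. Its log2 ratio in *EC-Ang2* was 2.15 (1.87 to 2.45), and 1.79 after thinning, where it did not pass the filter. At full depth it passed only through the positive cells, with a UMI in 2.53% of negative and 14.1% of positive ECs. The receptor of its product, *Aplnr*, rose from 7.13 to 22.7 CPM (in 3.09% and 11.2% of ECs). *Trp53i11* rose from 36.2 to 113 CPM, *Tubb6* from 151 to 270.2 CPM, and *Fscn1* from 33.1 to 80.4 CPM. *Lamb1*, a laminin chain, was 1 of 2 basement membrane genes of 13 that were higher, at 6.06 and 18.1 CPM (in 3.16% and 12.4% of ECs). With cells of 3000 to 8000 UMIs only, the median of the sprouting list was 0.18.

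The interferon-γ list was higher in positive cells in 13 of 19 genes, with a median of 0.66 and 0.71 after thinning, against 3 of 14 and 0.34 in Ctrl. *Gbp2* was at 322 and 774 CPM in *EC-Ang2* (log2 ratio 1.26, 1.20 to 1.32, and 1.14 after thinning) and at 136 and 277 CPM in Ctrl. *Cxcl10* rose from 199 to 411 CPM, *Cxcl9* from 115 to 267 CPM, *Iigp1* from 345 to 617 CPM, and *Cd274* from 21.5 to 47.2 CPM. Among 16 MHC class I genes, 4 were higher, with *Tap1* at 123 and 186 CPM. *Ubd* was at 299.9 and 817 CPM, in 8.64% and 20.9% of negative and positive ECs, but its log2 ratio of 1.45 came to 0.53 after thinning.

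Arterial genes were lower in all 6 that could be tested, with a median of -1.08 (-0.95 after thinning), against 3 of 6 lower and 1 higher in Ctrl. *Stmn2* fell from 72.4 to 22.4 CPM, *Sema3g* from 49.0 to 20.8 CPM, and *Bmx* from 78.3 to 37.1 CPM, all markers of arteries. *Mgp*, a matrix protein gene of that list, was at 1565 and 919 CPM in *EC-Ang2* and went the other way in Ctrl, at 858 and 1811 CPM. Transporters were lower in 8 of 16 genes with a median of -0.56 (5 of 16 and -0.23 in Ctrl), and capillary genes in 6 of 10 with a median of -0.64 (2 lower, 1 higher, and -0.24 in Ctrl). *Mfsd2a* fell from 71.4 to 31.3 CPM and *Slc6a6* from 378 to 125 CPM. After thinning the medians were -0.38 for transporters and -0.44 for capillary genes, and in cells of 3000 to 8000 UMIs they were -0.20 and -0.17, with -0.47 for arterial genes.

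In the adhesion list, 0 of 14 genes were higher or lower in positive cells of *EC-Ang2*, with a median of -0.06, against 1 of 11 higher and 1 lower with a median of -0.11 in Ctrl. *Selp* was at 249 and 275 CPM (log2 ratio 0.14, 0.06 to 0.22), *Icam1* at 435 and 411 CPM, and *Vcam1* at 859.8 and 846 CPM (log2 ratio -0.02, -0.07 to 0.02). In Ctrl, positive ECs were lower in *Vcam1*, at 416 and 195 CPM, and higher in *Mcam*, an adhesion molecule also of mural cells, at 30.7 and 51.9 CPM. *Car2* was at 963 and 1483 CPM, a log2 ratio of 0.62 that came to 0.30 after thinning, and *Tek* at 129 and 96.9 CPM in *EC-Ang2* and 173 and 108 CPM in Ctrl. *Klf2* and *Klf4* were lower in positive cells, from 2186 to 1311 CPM and from 559 to 294 CPM. *Agpat5*, a gene near *Angpt2* (chr8:18846277-18891361, plus strand), was at 52.5 and 70.9 CPM in *EC-Ang2* and at 44.2 and 113 CPM in Ctrl, where it was among the largest rises.

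Myeloid cells of *EC-Ang2* held far fewer microglial transcripts. A sum of at least 2 UMIs of the microglial genes *P2ry12*, *Tmem119*, *Fcrls*, *Siglech*, and *Sall1* was found in 1231 Ctrl cells (54.0%) and 222 *EC-Ang2* cells (10.2%), and a sum of 0 in 792 (34.7%) and 1659 (76.5%). Over all myeloid cells, 324 of 5778 genes were higher (5.61%) and 849 lower (14.7%) in *EC-Ang2*, among them 17 of 17 microglial homeostatic genes (median -3.16) and 13 of 14 cell cycle genes (median -1.90). With log2 ratios centred on the median gene, which lay at -0.11, the counts were 437 and 664. In mIgG1 against Ctrl, 385 of 5946 were higher (6.47%) and 1040 lower (17.5%). Genes regulated within a cell and a changed mix of microglia and infiltrating cells cannot be told apart in these sums. The comparison below therefore keeps to the cells with a microglial sum of 0, which carry markers of macrophages, monocytes, granulocytes, and dendritic cells and may include microglia without a counted marker.

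In these cells, 239 of 5164 genes were higher (4.63%) and 306 lower (5.93%) in *EC-Ang2*, and the median log2 ratio was 0.04. Many genes of lipid handling and of the lysosome were higher. Of 18 lipid genes, 9 were higher and 1 lower (median 0.67), and of 21 lysosomal genes 10 were higher and 0 lower (median 0.58). Both lists hold *Ctsk*, so their counts are not separate. *Gpnmb*, a membrane glycoprotein of lipid-laden macrophages (chr6:49036546-49070929, plus strand), was at 37.0 CPM in Ctrl, 366 in *EC-Ang2*, and 661 in mIgG1, with a log2 ratio of 3.31 (3.10 to 3.52). *Fabp5*, a fatty acid–binding protein, was at 182 CPM in Ctrl, 875 in *EC-Ang2*, and 1353 in mIgG1, with a ratio of 2.26 (2.17 to 2.36). *Apoe*, the lipoprotein carrier, was at 2851 CPM in Ctrl, 4916 in *EC-Ang2*, and 23198 in mIgG1. For all 3, mIgG1 lay further from Ctrl than *EC-Ang2* did.

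The cholesterol exporter *Abca1* rose from 25.8 to 60.0 CPM, and the collagenolytic cathepsin *Ctsk* from 2.89 to 37.1 CPM. Other lysosomal genes that rose were the protease genes *Ctsd* (1078 and 2479.7 CPM) and *Ctsl* (290.2 and 595 CPM), the phosphatase *Acp5* (98.2 and 288 CPM), and *Psap* (2419.9 and 4053 CPM). *Spp1*, or osteopontin, was at 1664 and 1953 CPM and *Trem2*, a lipid receptor, at 121 and 171 CPM, neither past 1.5-fold. *Itgax*, which encodes CD11c, was the 1 lipid-list gene that fell, from 65.2 to 40.1 CPM.

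Alternative activation genes were higher in 4 of 7 and lower in 1, with a median of 0.61. *Chil3* (chr3:106147554-106167564, minus strand) was at 833 CPM in Ctrl, 5840.4 in *EC-Ang2*, and 2360.3 in mIgG1, a log2 ratio of 2.81 (2.77 to 2.85), and *Arg1*, the arginase of such macrophages, was at 2399 CPM in Ctrl, 4666 in *EC-Ang2*, and 2259.8 in mIgG1 (log2 ratio 0.96, 0.93 to 0.99). For both, *EC-Ang2* was above Ctrl and mIgG1. *F13a1*, a transglutaminase, rose from 78.9 to 229 CPM, whereas *Il1rn*, the interleukin-1 receptor antagonist, fell from 1514 to 851 CPM.

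MHC class II and interferon genes were lower in these cells, whereas the interferon-γ list had been higher in ECs. All 8 tested MHC class II genes were lower, with a median of -0.82. Only 1 gene of the dendritic cell list could be tested in these cells, and it was lower too, at -1.11. The part of dendritic cells in the class II values was not tested. *H2-Ab1*, a class II β chain (chr17:34257689-34269419, plus strand), was at 6000.1 CPM in Ctrl, 3365 in *EC-Ang2*, and 6867 in mIgG1, and *Cd74*, the invariant chain, at 15879 CPM in Ctrl, 9069 in *EC-Ang2*, and 18636 in mIgG1. mIgG1 was above Ctrl for both. Of 19 interferon-γ genes 16 were lower (median -0.91), with *Gbp2* at 1370.2 CPM in Ctrl, 679 in *EC-Ang2*, and 268 in mIgG1 and *Cxcl10* at 904 CPM in Ctrl, 433 in *EC-Ang2*, and 117 in mIgG1. The type I list had 13 of 18 lower (median -0.83), including *Ifit3* (169 CPM in Ctrl, 78.0 in *EC-Ang2*, and 19.7 in mIgG1) and *Isg15* (2481 CPM in Ctrl, 1303 in *EC-Ang2*, and 518 in mIgG1). For the interferon genes named here mIgG1 was lower still. MHC class I differed less, with 2 of 17 lower and a median of -0.20.

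Inflammatory cytokines were lower in 5 of 21 and higher in 1. *Tnf* fell from 74.8 to 33.2 CPM and the chemokine *Ccl4* from 1052 to 634 CPM. *Il1b* was at 3918 and 3425 CPM and *Nos2*, the inducible nitric oxide synthase, at 225 and 190.3 CPM. Immediate early genes, which cell isolation induces, were lower in 2 of 15 here (median -0.31) and in 10 of 16 over all myeloid cells (median -0.83). The part of isolation in these values was not tested. Monocyte genes, a list that also holds *Chil3*, split, with 3 of 18 higher and 5 lower. *Ly6c2* rose from 1681 to 2838 CPM, *Plac8* fell from 6662 to 3606 CPM, and the chemokine receptor *Ccr2* was at 283 and 209 CPM. Granulocyte genes were lower in 5 of 10, among them *S100a8* (8943 and 3719 CPM). Over all myeloid cells, those with at least 20 UMIs of *S100a8* and *S100a9* numbered 321 in Ctrl (14.1%) and 356 in *EC-Ang2* (16.4%). Their share among cells with a microglial sum of 0 was not counted. *Angpt2* and *Vwf*, EC transcripts, were among the largest rises at 0.386 and 16.1 CPM and 5.01 and 17.7 CPM. Since classes of cells were summed here too, the share of each kind of cell in these values was not tested.

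**Figure D4:**
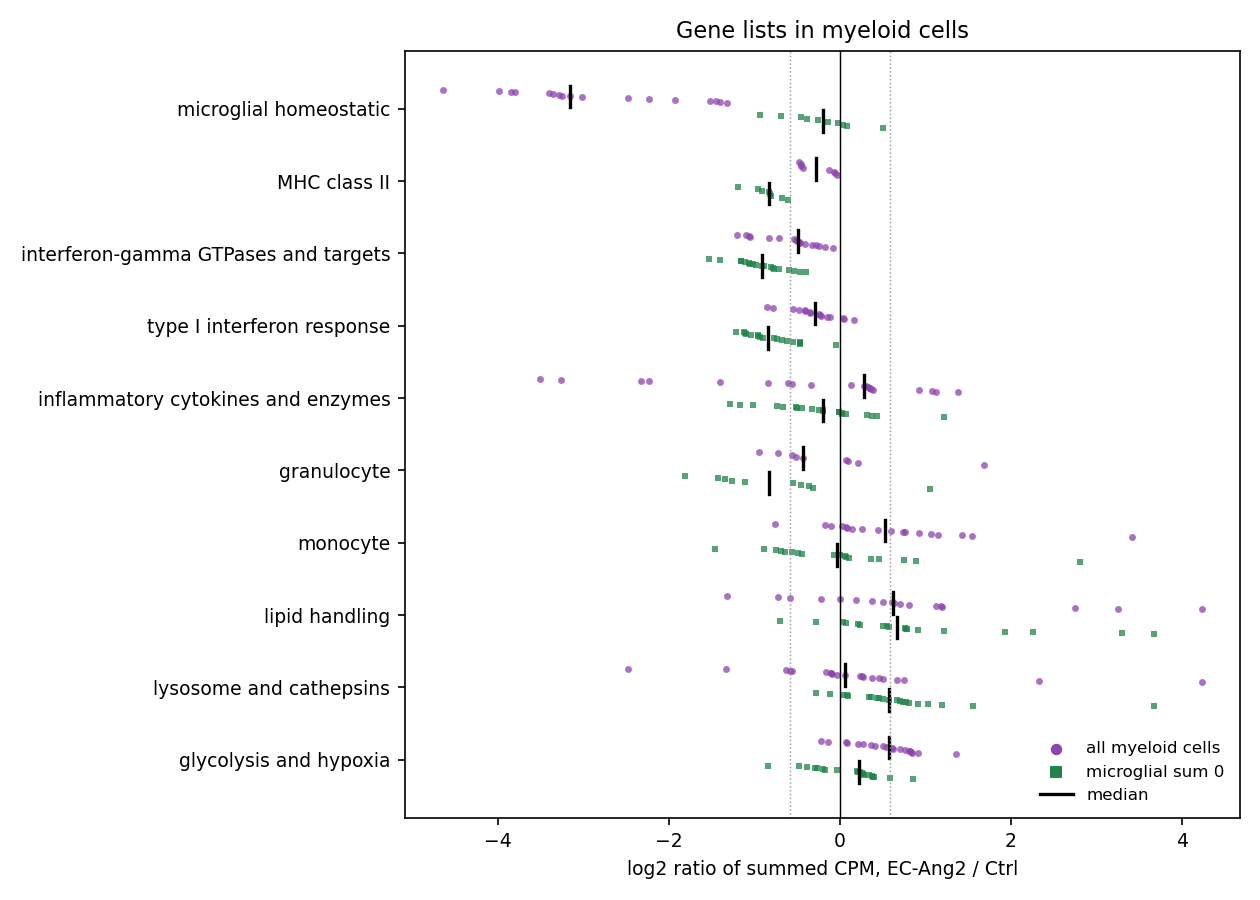
Log2 ratios of *EC-Ang2* over Ctrl for the tested members of 10 gene lists in all myeloid cells (purple circles) and in those with a microglial sum of 0 (green squares), with the median of each list as a black bar. Microglial genes are far below 0 over all myeloid cells. In cells with a microglial sum of 0, lipid handling lies above 0 (median 0.67) and MHC class II and interferon lists below 0.

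Cells with a microglial sum of at least 2 held 494 of 6705 genes higher (7.37%) and 1129 lower (16.8%). Outside the 5 genes of the sum, 13 tested homeostatic genes were lower, with a median of -1.61, and 12 of 20 cell cycle genes were lower. The macrophage gene *Chil3* was found in 16.6% of these cells in Ctrl and 72.1% in *EC-Ang2*, at 208 and 1899 CPM. Free RNA can add to such shares, since 39.7% of *EC-Ang2* ECs had a *Chil3* UMI too, at a level of 80.5 CPM. Its part in the shares was not tested. The sum thus may not select microglia alone, and changes within microglia cannot be told apart from another mix of cells. Monocyte genes were higher in 10 of 18 and glycolytic genes in 11 of 20, and MHC class II was higher in 4 of 8 and lower in 1.

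T cells numbered 191 in Ctrl and 396 in *EC-Ang2*, and their counts were small. Of 5077 genes, 281 were higher (5.53%) and 250 lower (4.92%), and the counting interval left out 0 for 152 and 187 of them. In mIgG1 against Ctrl, 411 of 4816 were higher (8.53%) and 460 lower (9.55%). Of 13 genes of Th1 cells, which make interferon-γ, 4 were lower and 0 higher (median -0.40). *Gzmb*, a cytotoxic protease (chr14:56258838-56262260, minus strand), was at 592 CPM in Ctrl, 193 in *EC-Ang2*, 145 in mIgG1, and 639.9 in Ang2 Ab, a log2 ratio of -1.61 (-1.79 to -1.44). *Ifng*, the cytokine itself, was at 415 CPM in Ctrl, 214 in *EC-Ang2*, 228 in mIgG1, and 237 in Ang2 Ab (log2 ratio -0.96, -1.15 to -0.77), and *Ccl5*, a chemokine, at 877 CPM in Ctrl, 299 in *EC-Ang2*, 919.8 in mIgG1, and 718 in Ang2 Ab (log2 ratio -1.55, -1.70 to -1.41). The transcription factor *Tbx21* was at 25.0 and 22.2 CPM and *Cxcr3* at 54.0 and 65.3 CPM. Ctrl T cells were thus the higher of the pair in these 3 products.

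Genes of Th17 cells had 1 of 8 higher. *Csf2*, the cytokine GM-CSF (chr11:54247271-54249667, minus strand), was at 144 CPM in Ctrl, 297 in *EC-Ang2*, 271 in mIgG1, and 424 in Ang2 Ab, a log2 ratio of 1.04 (0.78 to 1.31), and Ctrl was the lowest of the 4 libraries. *Il17a* was at 1729.6 CPM in Ctrl, 1227 in *EC-Ang2*, 629 in mIgG1, and 646 in Ang2 Ab (log2 ratio -0.49, -0.58 to -0.41) and did not pass 1.5-fold. The cytokine *Tnf* rose from 66.0 to 137 CPM (log2 ratio 1.05, 0.67 to 1.46) and *Tnfsf11*, or RANKL, rose from 115 to 218 CPM (log2 ratio 0.93, 0.63 to 1.23). *Ikzf2*, the regulatory T cell factor Helios, fell from 141 to 55.8 CPM, while *Ctla4* was at 297 and 367 CPM.

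*Cd4* was found in 47.1% of Ctrl and 60.6% of *EC-Ang2* T cells and *Cd8a* in 9.42% and 3.03%. *Cd8b1* fell from 151 to 60.4 CPM (log2 ratio -1.32, -1.66 to -0.99) and *Cd4* was at 174 and 186 CPM, and the part of the balance of CD4 and CD8 T cells in the Th1 values was not tested. Cell cycle genes were higher in 4 of 10, with *Top2a* at 39.0 and 76.4 CPM (log2 ratio 0.97, 0.46 to 1.51, but -0.17 without cycling cells), and type I interferon genes lower in 6 of 12 (median -0.56), with *Ifi27l2a* at 1556 and 896 CPM. *Klf2*, which keeps T cells circulating, fell from 591 to 262 CPM, and the interleukin-7 receptor *Il7r* rose from 166 to 264 CPM. Immediate early genes, which cell isolation induces, were lower in 6 of 16 in T cells, with a median of -0.50. The α4 and β1 integrin chains *Itga4* and *Itgb1*, whose partner is the product of *Vcam1*, were at 41.0 and 51.7 CPM and at 435 and 342 CPM. Several of the largest differences were again transcripts of other cells, with *Car2* at 9.0 and 144 CPM, *Chil3* at 6.0 and 70.6 CPM, and *C1qa* at 147 and 43.1 CPM, and 16 Ctrl and 24 *EC-Ang2* T cells also met the endothelial sum of at least 5.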

How the data were processed

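Single cells sorted from the SC were counted with the 10x Genomics 3′ v2 chemistry in 4 libraries, 1 per condition. The authors deposited, per the file headers, unfiltered and unnormalized UMI counts for 27998 genes and all barcodes, empty droplets included. The submitters' processing notes name Cell Ranger 2.1.1, mm10, and Seurat 2.3.4.

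Barcodes with at least 2000 UMIs and under 10% mitochondrial UMIs were kept and put into classes by the UMI sums given at the start. Barcodes that met 2 rules (6 in Ctrl, 3 in *EC-Ang2*) were counted in both classes, and those that met none (522 and 388) were left out. No doublet caller was run; mixed cells are limited only by the upper bounds of the class rules and by the alternative without the 5% of cells with most UMIs. UMIs were summed over the cells of a class in a library and divided by their total to give CPM. Log2 ratios have exact conditional binomial 95% intervals, CPM have exact Poisson intervals, and shares have exact binomial intervals. The size rule was at least 1.5-fold, a UMI in at least 10% of cells of 1 library, and at least 50 UMIs in both. No p-value was computed, because cells of 1 library are not replicates and the labels give no batches. The count functions were tested on simulated data.

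Named genes were members of the gene lists, together with the 10 largest rises and 10 largest falls in each comparison among genes with at least 100 UMIs (class-rule, mitochondrial, ribosomal, predicted, and receptor segment genes left out). The members and the lists were chosen with earlier results of these data known, and *Cd14* was taken off the list of immune transcripts after its values had been seen. Some genes of the lists are not reported here. Free RNA was estimated from barcodes with 10 to 100 UMIs. Of the gene identifiers, 27645 were matched to GENCODE M21 for coordinates. Promoters were RefSeq sequences of GRCm38.p6. Analyses used Python 3.11.15 with numpy 2.4.6, scipy 1.17.1, pandas 2.3.3, and matplotlib 3.10.9.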

Additional observations from a re-analysis of the deposited data

Results flagged for a closer look

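*Angpt2* was counted outside ECs, where the comparisons do not use it, above its level in Ctrl. It was at 15.0 CPM in *EC-Ang2* myeloid cells (0.816 in Ctrl), 14.0 CPM in *EC-Ang2* T cells (8.0 in Ctrl), and 404 CPM in *EC-Ang2* barcodes with 10 to 100 UMIs, which are mostly empty droplets (46.5 in Ctrl). For T cells the 34 UMIs in *EC-Ang2* and 8 in Ctrl leave exact Poisson intervals that overlap (9.67 to 19.5 and 3.45 to 15.8 CPM).

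In 2 gene lists the difference between *EC-Ang2* and Ctrl had opposite signs in ECs and in myeloid cells with a microglial sum of 0. The median log2 ratio of the interferon-γ list was 0.74 in ECs and -0.91 in those myeloid cells. For MHC class II it was 0.43 in ECs, where the free RNA estimate was 182% in Ctrl and 81.9% in *EC-Ang2* of the counted level of *Cd74*, and -0.82 in those myeloid cells. The class II value in ECs was thus not read as their own. In myeloid cells with a microglial sum of at least 2, the median was 0.32 for class II and -0.35 for the interferon-γ list. With 1 library per group, the difference between the cell types was not tested.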

How the results depend on the processing

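No paired analysis was possible because each group was 1 library, and for the same reason no replicate could be left out. The check covered 238 pairs of a gene and a comparison, so that a gene could enter more than once, and it left out some genes named above. Of these pairs, 165 differed at least 1.5-fold. Among them 157 kept their sign under each alternative in which the gene passed the filter. All 16 list medians past 1.5-fold kept theirs under each alternative in which they were computed. Over 18 alternatives in ECs the medians ran from -1.52 to -0.43 for capillary genes, -1.0 to -0.27 for transporters, 0.48 to 1.22 for venous genes, and 0.53 to 1.11 for the interferon-γ list. In myeloid cells, centring on the median gene moved all log2 ratios by 0.11. The cause of the moves below was not tested unless the alternative's construction gives it, as for fewer cells, fewer UMIs, or another fold.

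The counts of higher and lower genes in ECs (374 and 386) became 134 and 152 after thinning to 2000 UMIs, 1963 and 2236 with no filter on low counts, 151 and 114 at 2-fold, and 220 and 245 in ECs with 0 *Angpt2* UMIs in both, an alternative chosen after the data had been seen. Averaging the CPM of cells gave 206 lower. The *Angpt2* log2 ratio was 3.66 after thinning. In myeloid cells (324 and 849) they became 181 and 312 after thinning, 1161 and 4255 with no filter, and 103 and 384 at 2-fold, with 306 lower at a microglial sum of 0 and 494 higher at a sum of 2 or more. In T cells (281 and 250) they became 1693 and 1843 with no filter, 51 and 58 with a minimum of 200 UMIs, 57 and 54 at 2-fold, and 153 and 166 under a stricter class rule, with 139 higher after thinning. In the split of *EC-Ang2* ECs (114 and 122) they became 43 and 54 after thinning and 19 and 20 at 2-fold. There, 173 were higher with at least 2 *Angpt2* UMIs against 0, 175 when CPM were averaged, and 187 in cells without venous or arterial transcripts (37 against 103 cells, chosen after the data had been seen), and 76 were lower in cells of 3000 to 8000 UMIs.

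Signs turned for *Hbb-bs* in ECs without venous or arterial transcripts (1.51), for *Trem2* (0.51), *Ctsl* (1.04), and *C1qa* (0.37) in myeloid cells with a microglial sum of 0, and for *Top2a* in T cells without cycling cells (-0.17). In the split they turned for *Ccl5* at 3000 to 8000 UMIs (-0.065) and for *Car2* (-2.34) and *Cdkn1c* (0.62) in cells without venous or arterial transcripts. T cells numbered 191 in Ctrl, which limits the precision of their counts.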

Other observations

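*Cd14*, which encodes a co-receptor for lipopolysaccharide known from myeloid cells, was at 344 CPM in Ctrl, 916 in *EC-Ang2*, 369.8 in mIgG1, and 434 in Ang2 Ab in ECs, a log2 ratio of 1.41 (1.37 to 1.45) for *EC-Ang2* over Ctrl, and was named after its value had been seen. The free RNA estimate was 14.6% in Ctrl and 6.20% in *EC-Ang2* of that level.

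Transcripts of mural cells, which produce angiopoietin-1, differed in how often they were counted with ECs. ECs with at least 3 UMIs of 6 mural genes numbered 566 of 3639 in Ctrl and 282 of 2465 in *EC-Ang2*. With these cells left out, 380 of 6719 genes were higher in *EC-Ang2* ECs and 397 lower. In the split of *EC-Ang2* ECs, such cells made up 11.9% of *Angpt2*-positive and 11.1% of *Angpt2* 0 ECs, against 21.7% and 14.7% in Ctrl.

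ECs with UMIs of at least 3 cycling genes made up 3.45% of *Angpt2*-positive and 1.76% of *Angpt2* 0 ECs in *EC-Ang2* and 0.913% and 0.50% in Ctrl, at unequal depth, since positive cells had more UMIs. In myeloid cells with a microglial sum of 0, *Mmp8*, a collagenase of granulocytes, was the 1 granulocyte gene higher in *EC-Ang2*, at 68.3 and 142 CPM, while *Retnlg* was at 1066 and 303 CPM.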
